A study of Mus musculus with 4 samples.

Results

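The mouse genome holds a very large family of olfactory receptor genes, and 207 of them, those numbered from Olfr1 to Olfr299, are described here. They were found by matching the RefSeq accession of each array probe to a gene symbol of the form Olfr followed by a number in that range, with pseudogenes left out, and they are 207 of the 26206 accessions in GenBank form on the array. The RefSeq gene table lists 214 genes with such a symbol, and 7 of these had no accession on the array. The 207 receptors were represented by 222 probes in 285 spots. A single probe stood for 192 receptors, and 15 receptors had 2 probes.

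Olfactory receptors are G protein-coupled receptors of the sensory neurons in the nasal epithelium, where each mature neuron expresses a single receptor gene. Receptor activation is passed on by the G protein subunit Gnal, the adenylyl cyclase Adcy3 and the cyclic nucleotide-gated channel that contains Cnga2, and the axons of these neurons end in the olfactory bulb of the brain. The cell bodies lie in the nose, so that whole brain holds few if any of them, although transcripts of some receptors have been detected in other tissues.

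The mRNA was measured in whole brain of C57BL/6J mice at postnatal day 1 on 4 one-color Agilent arrays, a male and a female pool of the Sham group and a male and a female pool of the TiO2-H group. Pregnant mice had received 25 μL of vehicle (Sham, 5 dams) or of a suspension of titanium dioxide nanoparticles (TiO2-H, 6 dams, 100 μg per mouse) into the trachea. The treatment protocol in the labels and the methods of the study place this on gestational day 10.5, whereas the sample descriptions give day 14. RNA of 2 randomly chosen offspring per dam was pooled into 1 sample per group, so each array is 1 pool without a replicate, and no spread between animals is available.

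Values of the 4 arrays are given below with Sham male first, then Sham female, then TiO2-H male and last TiO2-H female. The slide was the same for all 4, and the Sham arrays were in its row 1 and the TiO2-H arrays in its row 2, so that exposure and slide row cannot be told apart. The processed signal had a 75th percentile of 810, 795, 867 and 871 units of intensity, and 56.9, 56.2, 59.4 and 61.2% of the spots were well above background. The lowest signal called well above background was 30.4, 31.7, 29.5 and 23.3, lowest on the TiO2-H female array. The sex-linked transcripts went against the sex labels of both TiO2-H arrays. Xist, which is expressed from the inactive X chromosome of females, gave 17.9, 276, 347 and 5.36, and the Y-linked Ddx3y gave 1418, 142, 7.18 and 1783. The Y-linked Eif2s3y gave 3519, 419, 6.40 and 4345. The Sham female array thus held some Y-linked signal beside Xist, well above that of the TiO2-H male array. Hence TiO2-H male and TiO2-H female below mean the arrays labelled so, and each exposure comparison is also given with the pairs crossed.

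Markers of brain tissue were present. All 7 of the neuronal markers and all 7 of the glial markers were well above background on the 4 arrays, as were all 10 markers of the olfactory bulb. Of the 20 genes listed for olfactory sensory neurons, 15 were well above background on all 4 arrays, although many of these genes are also expressed by brain neurons. Gnal gave 18098, 18074, 19331 and 21236, whereas Omp, which marks mature olfactory sensory neurons, gave 102, 87.2, 107 and 115, and Cnga2 gave 149, 150, 162 and 138. Omp and Cnga2 were dim but well above background on all 4 arrays. Rtp1, which carries receptors to the cell surface, and Stoml3 and Umodl1 were detected on none, whereas Rtp2 was detected on all 4, with 119, 109, 140 and 146. The summed signal of this list was 302829, 291857, 317028 and 324192. Most of it was Gap43, with 121558, 112411, 132490 and 130812, and Nsg1, with 114866, 113168, 113834 and 119112. The sum therefore says little about dim genes such as Omp. None of the genes of this list reached 1.5-fold or 0.67-fold between TiO2-H and Sham on the arrays of either labelled sex. Of the 9 genes listed for supporting cells and glands of the nasal epithelium that were on the array, 5 were detected on all 4 arrays (Ermn, Krt5, Lypd2, Obp1a and Sec14l3) and 3 on none. Obp1a, an odorant-binding protein, gave 573, 537, 598 and 581, whereas the enzyme Cyp2g1 lay at 7.99, 8.29, 7.64 and 6.04 and was detected on none. The summed signal of this list was 5003, 5314, 6431 and 6207, and none of its genes passed either threshold. Most of this sum was Ermn alone, with 3645, 4147, 5004 and 4796. Whether the detected genes of this list came from nasal or from brain cells was not tested. The part of the cells of either nasal list in the receptor signals was not tested. All 15 of the listed regulators of receptor choice, such as Lhx2, Ldb1, Ebf1 and Kdm1a, were well above background on the 4 arrays, and none of them passed either threshold.

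Upstream sequences are shown for 3 receptors on which the results below turn: Olfr173, the brightest on average; Olfr212, the next brightest and nearly level on the 4 arrays; and Olfr123, which was far higher on a single array. Each window holds 250 bases before and 50 bases after the start of the gene model in RefSeq (build GRCm38.p6), read 5′ to 3′ on the strand of the gene. Capitals mark the homeodomain core TAATTA, searched on both strands, on which this palindrome reads alike. The array was designed on an earlier build, and no coordinates of the probes were used.
Olfr173 (chr16:58797893-58798192, minus strand): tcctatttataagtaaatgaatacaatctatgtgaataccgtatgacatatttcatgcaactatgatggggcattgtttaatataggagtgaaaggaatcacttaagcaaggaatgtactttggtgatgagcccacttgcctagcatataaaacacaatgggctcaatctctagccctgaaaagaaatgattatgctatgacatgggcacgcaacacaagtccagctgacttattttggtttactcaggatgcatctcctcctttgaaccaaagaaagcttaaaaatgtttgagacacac
Olfr212 (chr6:116506266-116506565, plus strand): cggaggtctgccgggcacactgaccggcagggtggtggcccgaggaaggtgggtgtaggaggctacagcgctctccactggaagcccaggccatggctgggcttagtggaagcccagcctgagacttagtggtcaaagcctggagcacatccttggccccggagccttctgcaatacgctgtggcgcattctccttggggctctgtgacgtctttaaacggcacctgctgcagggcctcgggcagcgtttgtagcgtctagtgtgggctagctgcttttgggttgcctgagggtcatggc
Olfr123 (chr17:37795196-37795495, plus strand): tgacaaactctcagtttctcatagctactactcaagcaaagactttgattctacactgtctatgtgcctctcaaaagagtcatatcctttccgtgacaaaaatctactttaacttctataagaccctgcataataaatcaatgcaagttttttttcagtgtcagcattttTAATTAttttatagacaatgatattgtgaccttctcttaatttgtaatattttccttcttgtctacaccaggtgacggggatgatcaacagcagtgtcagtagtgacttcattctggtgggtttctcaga

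The Olfr123 window held 1 TAATTA, and the other windows held none. The Olfr212 window was the richest in G and C, with 62.3% against 37.7% for Olfr173 and 35.7% for Olfr123, and it held 13 CpG dinucleotides against 2 in each of the others. Windows were listed for 164 of the receptors (165 windows). The gene model started at an ATG in 61.8% of them, compared with 5.83% of all 32851 windows, so for these receptors, Olfr123 included, the window precedes the coding start and may not hold the start of transcription. The median G and C content was 37% in the receptor windows and 52.7% in all windows. TAATTA was found in 13.3% of the receptor windows and in 5.29% of all windows, and the sequence CCCNNGGG, the core bound by the O/E (Ebf) factors, in 4.24% and 13.7%, respectively. These are matches of letters only. Among the windows of receptors that were well above background on no array, 13.95% held TAATTA, compared with 1 of the 12 windows of receptors that were well above background on all 4.

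Few of the receptors were detected. An array reading counts as detected here when the scanner software called the spot well above background, and a receptor with 2 probes was represented by the brighter. On the Sham male array 23 of the 207 receptors (11.1%) were well above background, and on the Sham female array 21 (10.1%). On the TiO2-H male array there were 29 (14.01%), and on the TiO2-H female array 39 (18.8%). Over all 26206 accessions the share was 67.8, 67.1, 69.7 and 71.3%, so the arrays fell in the same order, with both TiO2-H arrays above both Sham arrays. The 855 olfactory receptors numbered 300 and above had shares of 8.07, 8.07, 11.3 and 11.7%. The 164 Vmn1r receptors, a vomeronasal family, had 10.4, 10.4, 12.2 and 12.2%, and none of the 14 trace amine-associated receptors was detected on any array. With 1 signal limit applied to all arrays in place of each array's own call, the shares of the Olfr1 to Olfr299 receptors were 11.6, 11.6, 14.01 and 16.4%. With 1 array per group, no test of these shares was made. Whether fewer cells of a type or less RNA per cell lies behind a low signal cannot be told apart in pooled tissue.

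**Figure D1:**
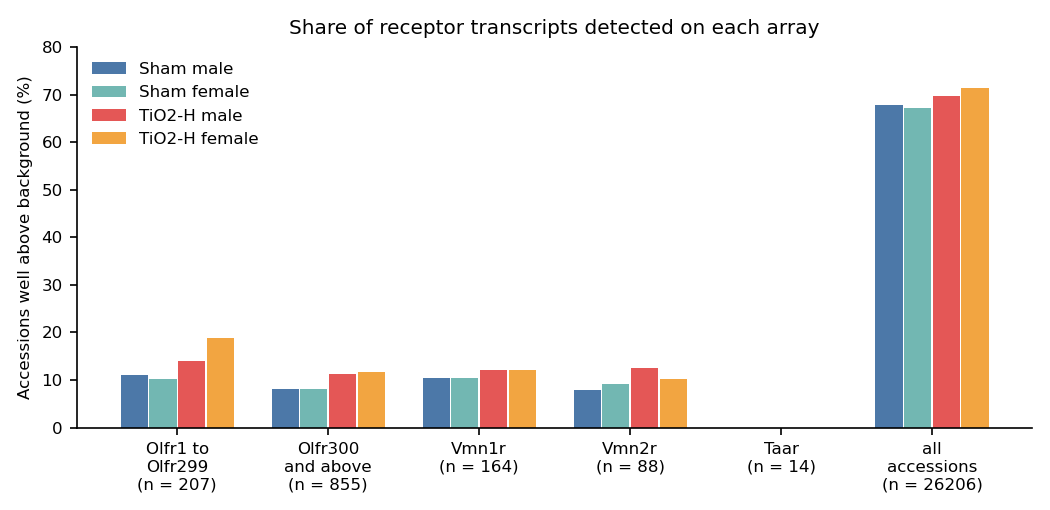
Percentage of accessions well above background on each of the 4 arrays (bars, 1 array each, no error bars) for the Olfr1 to Olfr299 receptors, the receptors numbered 300 and above, vomeronasal receptors (Vmn1r, Vmn2r), trace amine-associated receptors (Taar) and all accessions. The Olfr1 to Olfr299 receptors lie between 10.1 and 18.8%, and all accessions between 67.1 and 71.3%.

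Counted by receptor, 160 of the 207 (77.3%) were well above background on no array and 47 on at least 1. Of these 47, 20 were detected on 1 array only, 7 on 2 arrays, 2 on 3 arrays and 18 on all 4. Single-array detection thus made up 42.6% of the detected receptors, compared with 6.98% of the 19474 detected accessions on the whole array and 48.3% of the 149 detected receptors numbered 300 and above. Of the receptors detected on 1 array only, 1 was on the Sham male, 3 on the Sham female, 4 on the TiO2-H male and 12 on the TiO2-H female array. All accessions detected on 1 array only were spread in a similar order, as 217, 181, 332 and 630. At least 1 TiO2-H array and no Sham array detected 21 of the 207 receptors, whereas at least 1 Sham array and no TiO2-H array detected 4 of the 207. The corresponding counts over all accessions were 1320 and 414. Both TiO2-H arrays and no Sham array detected 5 receptors, namely Olfr30, Olfr47, Olfr190, Olfr279 and Olfr297, and no receptor was detected on both Sham arrays and no TiO2-H array. These 5 were named after their values had been seen. Of all 26206 accessions, 358 were detected on both TiO2-H arrays and no Sham array. The reverse, both Sham arrays and no TiO2-H array, held for 16 accessions.

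The 18 receptors detected on all 4 arrays gave low signals. Their median signal, averaged over the arrays, was 115, compared with 1025 for the 17162 accessions detected on all 4. Olfr173 (NM_147000) was the brightest, with 365, 354, 636 and 579. Both TiO2-H arrays were above both Sham arrays for it, and the arrays of the same exposure lay close together. Olfr212 (NM_001011800) gave 262, 237, 266 and 232, Olfr96 gave 195, 178, 208 and 196, and Olfr187 gave 190, 178, 199 and 182. For these 3 receptors the scaled values of the Sham and TiO2-H arrays overlapped. Olfr74, a receptor for vanillin-like odorants, gave 130, 120, 152 and 131, close together on all 4 arrays. Olfr213 gave 157, 140, 122 and 107 and Olfr166 gave 137, 105, 110 and 97.0. For Olfr213 both Sham arrays were above both TiO2-H arrays, whereas for Olfr166 the ranges overlapped as read and not after scaling.

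The SD of the scaled log2 signal over the 4 arrays had a median of 0.19 among these 18 receptors and ranged from 0.048 (Olfr53) to 1.84 (Olfr123). The 5903 accessions detected on all 4 arrays in the same range of mean signal had a median of 0.13. Olfr123 (NM_146630) stood apart from the others, with 70.6, 877, 81.3 and 69.7. Only the Sham female array was high for it, and the other 3 arrays lay within a narrow range. The next highest SD, 0.50, was that of Olfr122, with 43.5, 47.7, 80.4 and 35.2.

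**Figure D2:**
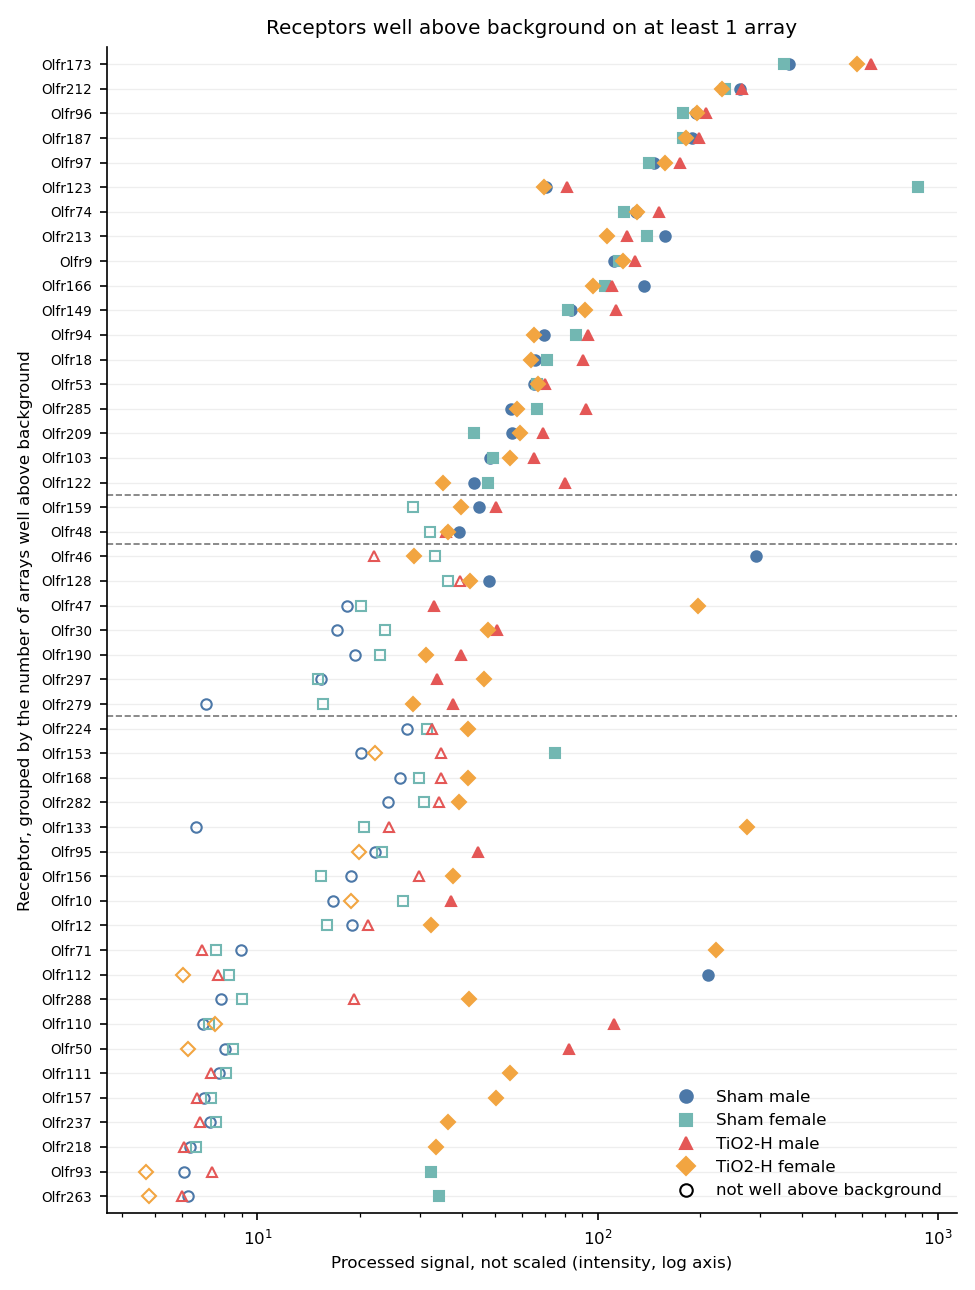
Processed signal (intensity, log axis) of the 47 receptors detected on at least 1 array, 1 symbol per array, filled where well above background and open where not; dashed lines separate receptors detected on 4, 3, 2 and 1 arrays from top to bottom. Olfr123 is high on the Sham female array alone (877), and most receptors detected on 1 array only lie under 60 there.

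A few receptors were bright on a single array. Olfr133 gave 274 on the TiO2-H female array and at most 24.4 elsewhere, and Olfr71 gave 223 on the same array and at most 8.94 elsewhere. Olfr112 gave 212 on the Sham male array and at most 8.28 elsewhere. Olfr110 and Olfr50 were detected on the TiO2-H male array, with 112 and 82.5, and lay at 7.50 or below and 8.50 or below on the other arrays. None of these 5 receptors was detected on any other array, and on its own array each was 2.80 to 11.8 times the lowest signal called well above background there. Olfr153 gave 74.9 on the Sham female array and 34.6 at the most elsewhere. The other 14 receptors detected on 1 array only were under 60, and 12 of the 20 had a signal within 2 times the lowest signal called well above background on that array. Olfr93 and Olfr263, both on the Sham female array, were closest to that limit, at 1.02 and 1.08 times.

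Among the receptors detected on 2 arrays, Olfr46 and Olfr47 had the same form. Olfr46 gave 292 on the Sham male array and 33.4, 22.1 and 28.8 on the others. Olfr47 gave 197 on the TiO2-H female array and 18.3, 20.2 and 32.9 on the others. In both, 1 array was several times higher than the array with the same exposure.

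The comparison of TiO2-H with Sham used the thresholds of the study's methods, 1.5-fold or more and 0.67-fold or less, on signals divided by the 75th percentile of their array. A receptor was compared when either array detected it. A signal that was not well above background was set to the lowest signal called well above background on its array (the floor), or kept where it was higher. A fold change against a signal set to the floor is a lower bound, written as at least. One against a kept signal is a ratio to a dim reading. No p was computed within a labelled sex, since each group was 1 array.

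Among the arrays labelled male, 32 receptors were compared. At or above 1.5-fold were 6 of them, against a background of 2.87% of the 18619 accessions compared, and 2 were 0.67-fold or less, against 2.26%. Together they were 25% of the receptors compared, beside 5.12% of all accessions. The detected receptors were dim, and no share was computed for accessions of a like signal. Olfr122, Olfr173 and Olfr285 were detected on both arrays and were 1.73-, 1.63- and 1.56-fold higher on the TiO2-H male array. Olfr285 gave 55.5 on the Sham male and 92.5 on the TiO2-H male array. Olfr110, Olfr50 and Olfr30 were at least 3.43-, 2.53- and 1.56-fold higher, against a Sham signal that was not well above background. With normexp background correction and quantile normalization, Olfr122, Olfr285 and Olfr50 no longer reached 1.5-fold (log2 0.45, 0.30 and 0.51), whereas Olfr173 did (log2 0.66). With quantile normalization alone, Olfr30 and Olfr285 did not (log2 0.51 and 0.578), the latter just short of the threshold of 0.585. Olfr46 was at least 10.6-fold and Olfr112 at least 7.68-fold lower, both detected on the Sham male array and dim on the TiO2-H male array. Hence 5 of the 8 receptors past a threshold (62.5%) were detected on only 1 of the arrays, compared with 59.5% of the 954 accessions past a threshold. Among the 20 receptors detected on both arrays, 3 reached 1.5-fold and none 0.67-fold, against backgrounds of 1.33 and 0.889% of 17431 accessions. The scanner software's own error of the log2 ratio, which covers a single spot on each array, was 0.33 for Olfr122, 0.21 for Olfr173 and 0.31 for Olfr285. Their log2 ratios were 0.79, 0.70 and 0.64.

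The arrays labelled female allowed 42 receptors to be compared. Of these, 4 reached 1.5-fold, against a background of 1.95% of 18904 accessions, and 4 were 0.67-fold or less, against 2.25%. Both directions together made up 19.0% of the receptors compared, beside 4.2% of all accessions. Olfr133, Olfr71, Olfr47 and Olfr111 were at least 7.90-, 6.43-, 5.67- and 1.59-fold higher on the TiO2-H female array, all against a dim Sham signal. Olfr153, Olfr263 and Olfr93 were at least 3.51-, 1.61- and 1.52-fold lower, all against a dim TiO2-H signal. When 1 floor was used for all arrays, 2 receptors were 0.67-fold or less. With normexp, Olfr111, Olfr263 and Olfr93 no longer passed a threshold (log2 0.30, -0.37 and -0.33). Without scaling, Olfr263 and Olfr93 did not either (-0.55 and -0.47). Olfr123, detected on both arrays, was 13.8-fold lower on the TiO2-H female array (log2 ratio -3.78), which rests on the high Sham female signal. It was the only 1 of the 18 receptors detected on both arrays that passed a threshold. The background at or below 0.67-fold was 1.21% of 17369 accessions. Thus 7 of the 8 receptors past a threshold (87.5%) were detected on 1 of the arrays only, compared with 52.8% of the 794 accessions past a threshold. Olfr173 lay just short of the threshold, at 1.49-fold, and Olfr122 just short of the other, at 0.673-fold, the opposite side from the arrays labelled male.

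No receptor passed the same threshold on the arrays of both labelled sexes with the scaling used here, and none passed opposite thresholds, but both statements depend on the scaling. Olfr173 reached 1.5-fold in both without scaling (log2 0.80 on the arrays labelled male and 0.71 on those labelled female) and with normexp (0.66 and 0.59), and so did Olfr30 without scaling (0.74 and 0.59). With quantile normalization Olfr122 passed opposite thresholds, at 0.72 and -0.61. The median log2 fold change of the compared receptors was 0.15 on the arrays labelled male and 0.018 on those labelled female, beside 0.0081 and 0.013 over all accessions compared. The pairs were also crossed, as the sex-linked transcripts would place them. The TiO2-H male array against the Sham female array then had 4 receptors that reached 1.5-fold and 2 that were 0.67-fold or less. The TiO2-H female array against the Sham male array had 5 and 4. No share over all accessions was computed for the crossed pairs, so these counts cannot be set against a background. Olfr173 kept its side, with log2 ratios of 0.72 and 0.56. Olfr123 moved with the Sham female array, at -3.56 when that array was the Sham partner and -0.12 when it was not. Olfr46 moved with the Sham male array, to -3.44 against it.

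Differences of similar size were found where the exposure did not differ. Between the Sham female and the Sham male array, 26 receptors were compared. At or above 1.5-fold were 2, against a background of 2.14% of 18149 accessions, and 2 were 0.67-fold or less, against 2.13%. Together they were 15.4% of the receptors compared. Olfr123 was higher on the Sham female array, with a log2 ratio of 3.66, and Olfr153 by at least 1.33, against a dim signal. Olfr46 was lower, with -3.10, a ratio to a Sham female signal of 33.4 that was not well above background. Olfr112 was dim on the Sham female array, with -2.71 as a bound. The 4 receptors with these Sham differences are 4 of the 6 that were at or below 0.67-fold in the exposure comparisons, which use the same Sham arrays. Between the TiO2-H female and the TiO2-H male array, 11 of 43 receptors (25.6%) passed a threshold, against a background of 4.27% of 19060 accessions. Of these, Olfr47 was higher on the TiO2-H female array by 2.57 (log2), and Olfr133 and Olfr71 by at least 3.21 and 2.92, against a dim signal. Olfr122 was lower, at -1.20, and Olfr110 and Olfr50 were dim on that array, with bounds of -2.27 and -1.83.

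When all 4 arrays were fitted together by limma as TiO2-H against Sham, none of the 47 receptors had an adjusted p under 0.05, and neither did any of the 19468 accessions tested (lowest adjusted p 0.277 with Benjamini-Hochberg adjustment). At an unadjusted p under 0.05, 3 of the 47 receptors (6.38%) were found, against a background of 16.7% of all accessions tested. These were Olfr173, with a log2 fold change of 0.64, Olfr30, with 0.55, and Olfr213, with -0.49, each with an adjusted p of 0.277 in limma. Olfr30 was dim on the Sham male and the Sham female array, so both of its Sham values were set to the floor and its 0.55 is a bound. It entered the fit only through the TiO2-H arrays, which alone detected it. Its direction thus follows in part from the filter, and its p rests in part on the fixed values. Neither is support for a difference. No receptor had an adjusted p under 0.05 in any other setting of this fit that kept all 4 arrays. Each array was also left out in turn, where the lone array was taken to vary like the others. The receptors were not filtered again, so some were then compared on dim or floor values alone, and only effect sizes are given. The median log2 fold change of the 47 receptors was 0.027 without the Sham male and 0.044 without the Sham female array. It was -0.055 without the TiO2-H male and 0.0028 without the TiO2-H female array. Over all accessions the medians were 0.010, 0.0050, 0.0051 and 0.0037 in the same order. The smallest p that an exact permutation of these arrays allows is 0.333.

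The dim receptors showed what fold changes look like when no detection filter is applied. With the arrays labelled female, 85 of the 207 receptors were at or below 0.67-fold as read, and 81 of these 85 were well above background on neither array. The background was 13.8% of 26197 accessions at or below 0.67-fold. At or above 1.5-fold were 26 receptors, against a background of 5.77%. For the arrays labelled male, without the filter, 36 receptors reached 1.5-fold, against a background of 7.34%, and 8 were 0.67-fold or less, against 4%, and 30 of these 44 were well above background on neither array.

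**Figure D3:**
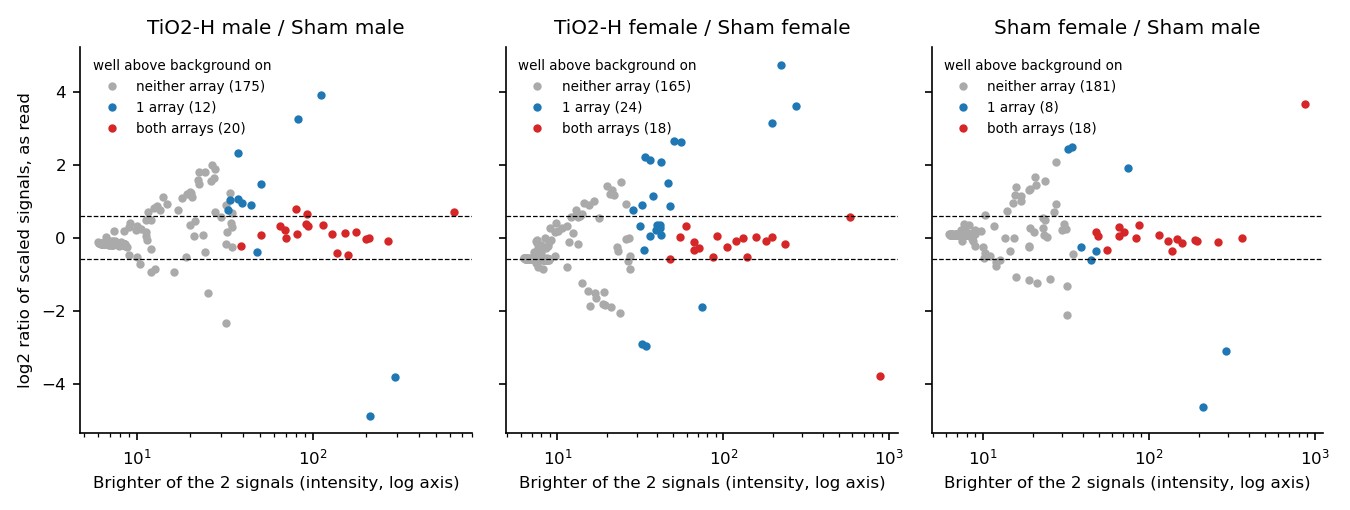
Log2 ratio of the scaled signals as read (y axis) against the brighter of both signals (x axis, intensity, log axis) for all 207 receptors in 3 comparisons, colored by the number of arrays on which the receptor was well above background; dashed lines mark 1.5-fold and 0.67-fold. In the female panel the 165 receptors detected on neither array include a dense band at the lower line, with a median of -0.58.

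The band at the 0.67-fold line came from receptors whose signals the scanner software did not call positive and significant, a laxer call than well above background. On the TiO2-H female array 119 receptors had no such call, and their signals ranged from 4.63 to 6.80. The corresponding signals ranged from 6.01 to 8.59 for 147 receptors on the Sham male array, from 6.28 to 8.95 for 138 on the Sham female array, and from 5.83 to 11.2 for 125 on the TiO2-H male array. The dimmest signals were thus lowest on the TiO2-H female array, which had the highest 75th percentile. For the 105 receptors without the call on either array labelled female, the log2 ratio as read had a median of -0.58 and an interquartile range of 0.019, and 64 of the 105 were at or below 0.67-fold, which is -0.58 on this scale. The lowest signal called well above background differed between the same arrays by nearly as much, with a log2 difference of -0.57 after scaling. Between the arrays labelled male, 117 such receptors had a median of -0.17, an interquartile range of 0.019 and none past a threshold.

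The dim receptors were close to dim transcripts in general. The receptors that were well above background on neither array labelled female had a median log2 ratio of -0.58, and all 7293 such accessions had -0.57. Of these 165 receptors 49.1% were at or below 0.67-fold, compared with 43.6% of the 7293 accessions. The medians were -0.16 and -0.16 on the arrays labelled male, and between the Sham arrays 0.089 and 0.088.

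**Figure D4:**
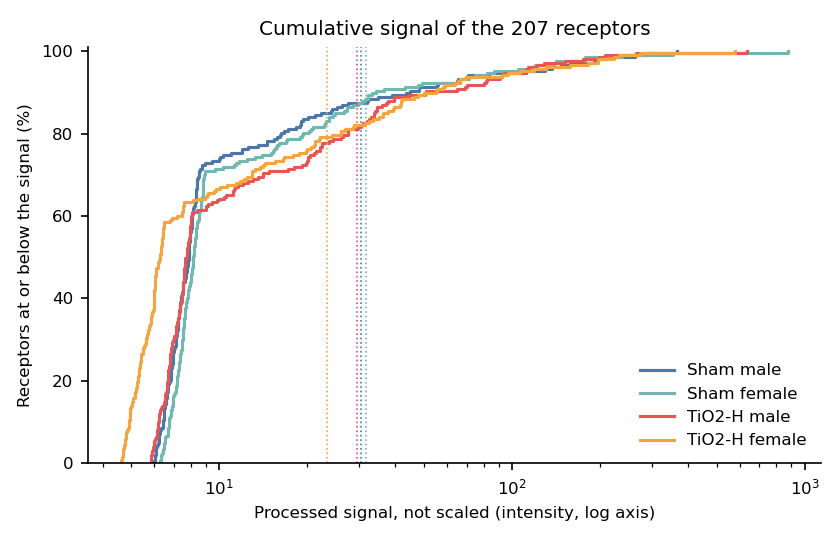
Cumulative percentage of the 207 receptors (y axis) at or below a processed signal (x axis, intensity, log axis), 1 line per array; dotted vertical lines mark the lowest signal called well above background on each array. The receptors detected on no array had a median signal of 7.52, 7.84, 7.51 and 6.00, and the line of the TiO2-H female array starts furthest to the left.

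Probes of 7 receptors were printed 10 times on each array, which gives the error of the spots. Olfr53 and Olfr74 were well above background in every spot that was not an outlier. The mean signal of Olfr53 was 65.1 ± 7.07, 66.2 ± 11.7, 70.1 ± 12.5 and 66.6 ± 8.99 (SD over 9 or 10 spots). Its log2 ratio between TiO2-H and Sham was -0.0010 ± 0.093 on the arrays labelled male and -0.11 ± 0.098 on those labelled female (SE over spots), and that of Olfr74 was 0.13 ± 0.095 and 0.0052 ± 0.099. None of these differed from 0 by more than 2 SE. Here and below the SE takes the spots of the arrays as unpaired, although they lie at the same positions on each array. It can therefore include differences between positions that the arrays share, and a paired SE was not computed. The error over spots leaves out the spread between pools.

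Olfr92, Olfr109, Olfr148, Olfr154 and Olfr181 were not well above background in any of their spots. Even so their ratios as read could be tight. Olfr92 had a mean signal of 7.56 ± 0.784 over 8 spots on the Sham female array and 5.51 ± 0.619 over 10 spots on the TiO2-H female array, a log2 ratio of -0.59 ± 0.074 (SE over spots). Olfr109, Olfr148 and Olfr154 had -0.58 ± 0.070, -0.57 ± 0.065 and -0.57 ± 0.061, near the 0.67-fold threshold. Olfr181, whose spots differed more, had -0.41 ± 0.14. Over the 399 probes printed 10 times on the array, the median SD of the log2 signal between spots was between 0.064 and 0.067 for those well above background and between 0.20 and 0.37 for those not. The detected receptor probes lay above the first of these ranges, at 0.17 to 0.24 for Olfr53 and 0.19 to 0.25 for Olfr74. The undetected receptor probes ranged from 0.11 (Olfr154, Sham male) to 0.69 (Olfr181, TiO2-H male).

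**Figure D5:**
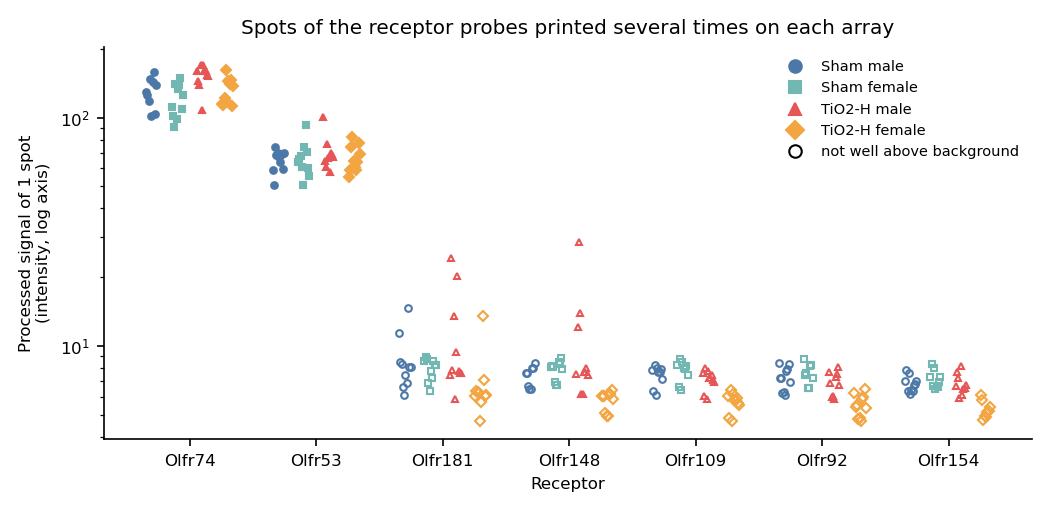
Processed signal of each spot (y axis, intensity, log axis) for the 7 receptor probes printed 10 times, by array, filled where the spot was well above background; spots called outliers are left out. The spots of Olfr74 and Olfr53 are filled on every array, and those of the other 5 receptors are all open and have their lowest mean on the TiO2-H female array.

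Different probes of a receptor did not detect it together. The 15 receptors with 2 probes gave 60 readings over the 4 arrays, of which 12 had 1 probe well above background, 48 had neither and none had both. Among the 4513 accessions with 2 probes on the array, 19.9% of the readings with any detection had 1 probe only. Olfr285 gave 55.5, 66.4, 92.5 and 58.0 with 1 probe and 8.43, 8.81, 8.02 and 6.40 with the other. The first probe was detected on every array and the other on none. Olfr282 was detected with 1 probe on the TiO2-H female array (39.1) and with the other on the Sham male array (66.6), where the first gave 24.2. When the probes were averaged, Olfr50 and Olfr285 no longer reached 1.5-fold on the arrays labelled male, where their averaged signals lay under the floor on both arrays, so that no fold is given. Receptor genes are similar in sequence, and whether a probe also binds related transcripts was not tested.

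Several well-studied receptors were not detected. Olfr2, which responds to octanal, lay at 7.75, 8.05, 7.19 and 10.6. Olfr16, a receptor for lyral that is also known from sperm, lay at 6.55, 7.84, 6.25 and 9.62. Olfr73, a eugenol receptor, lay at 16.3, 19.2, 9.01 and 7.51, and Olfr78, which is known from the kidney and the carotid body, at 7.33, 7.67, 7.11 and 5.64. Neither these nor Olfr17 and Olfr160 were detected. At the upper end of the number range, Olfr299 gave 6.58, 8.22, 6.27 and 5.01, and the next receptor on the array, Olfr301, gave 8.20, 8.68, 7.94 and 6.33, both undetected.

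Olfactory receptor genes lie in clusters, and the detected receptors were spread over many of them. Runs of receptor genes with at most 5 other genes between neighbors were taken from the RefSeq gene table (GRCm38.p6), and 43 runs held at least 1 of the 207. The run from Olfr90 to Olfr138 held the most, with 45 of the receptors, and 13 of these (28.9%) were detected, 6 of them on all 4 arrays (Olfr94, Olfr96, Olfr97, Olfr103, Olfr122 and Olfr123). It also held 6 receptors detected on 1 array only, among them Olfr110, Olfr111, Olfr112 and Olfr133. Olfr110, Olfr111 and Olfr112 are neighbors in number but were detected on different arrays, namely TiO2-H male, TiO2-H female and Sham male. In the run from Olfr172 to Olfr209, with 23 of the receptors, 4 were detected (Olfr173, Olfr187, Olfr190 and Olfr209), and in the run from Olfr25 to Olfr251, with 15, only Olfr149 was. In the smaller run that holds Olfr212 and Olfr213, 2 of 5 were detected. No test of a run was made.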

How the data were processed

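Scanner files of Agilent Feature Extraction (version 10.10.1.1 per the file headers) and a table of processed values were deposited by the authors, both as intensity, and the deposited flags of each spot hold 0 or 1. The processed signal is corrected for background within an array and not scaled between arrays, and very dim spots hold small positive values. Here it was divided by the 75th percentile of each array over the 59305 spots that are not controls and log2-transformed. Spots called outliers were left out (13 member spots), spots of a probe were averaged, and the brightest of the probes of an accession was used. Accessions were named through the RefSeq gene table (GRCm38.p6), which matched 81.9% of the 26206. The members, gene lists and rules were chosen with earlier results of these data known.

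Receptors named in the text were the brightest of those on all 4 arrays, those with the largest ratios per labelled sex, the brightest on 1 array only, those with several probes and the ends of the number range. Two-sided moderated tests across all accessions used R 4.3.3 and limma 3.58.1, adjusted by Benjamini-Hochberg; other steps used Python 3.11.15, numpy 2.4.6, pandas 2.3.3 and matplotlib 3.10.9. The fold rule and the limma fit were tested on simulated data. The number of arrays, 1 per group, limits the precision. Alternatives were other detection calls, floors, filters, thresholds and scalings, the deposited table, the mean of the probes (also with each mean floored, chosen after seeing the data), the kept outlier spots, crossed pairs, sex covariates and each array left out. The files held no mean spot signal, so normexp (offset 50) was run on the medians. Columns of the authors' own comparisons were not among the files used here. Probe and protein sequences were not used here.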

Additional observations from a re-analysis of the deposited data

How the results depend on the processing

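Detection rested on the call. With the laxer positive and significant call, the shares of receptors were 29.0, 33.3, 39.6 and 42.5% (Sham male, Sham female, TiO2-H male, TiO2-H female), and 51 receptors were on 1 array only. On the arrays labelled male, the receptors at or above 1.5-fold (6) became 3 with normexp and 3 when both arrays had to detect them, 12 without the floor, 36 without floor and filter and 2 at 2-fold; those at or below 0.67-fold (2) became 0 when both arrays had to detect them and 8 without floor and filter. On the arrays labelled female, those at or above 1.5-fold (4) became 7 without scaling, 0 when both arrays had to detect them, 13 without the floor and 26 without floor and filter; those at or below 0.67-fold (4) became 2 without scaling, with normexp, with 1 floor for all arrays or at 2-fold, 1 when both arrays had to detect them, 8 with the mean of the probes (4 when every mean under the floor was raised to it, a setting chosen after seeing the data) and 85 without floor and filter. Between the Sham arrays, those at or above 1.5-fold (2) became 1 when both arrays had to detect them, 4 without the floor and 19 without floor and filter, and those at or below 0.67-fold (2) became 0 and 12 in the first and the last of these. Shares over all accessions were computed only for the main rule, for detection on both arrays and with neither floor nor filter. The counts of the other settings have no background, so whether their changes are particular to the receptors was not tested. The share set by a dim signal became 93.2% (no floor and filter) and 100% (2-fold) on the arrays labelled male. It is 0% by definition when both arrays have to detect a receptor. Without a filter, the median log2 fold change was -0.14 (floor kept) and -0.16 (no floor) on the arrays labelled male, and -0.57 and -0.57 on those labelled female.

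With the mean of its probes Olfr50 took the value -0.37 (log2) on the arrays labelled male. This is no decrease: its averaged TiO2-H signal was under the floor and was kept as read, while the Sham signal was raised to its floor. With every mean floored, Olfr50 and Olfr285 both took -0.14, the difference of the floors themselves. Apart from these 3 changes of sign, 724 of 783 values of single receptors under an alternative stayed within the scanner error and 56 moved by more. The limma count of 0 held in each setting, array omissions included (0 to 0). The labels carry no replicate numbers. With sex as a covariate, which pairs the arrays, the lowest adjusted p of a receptor was 0.416 as labelled and 0.438 crossed (limma). The alternative that takes symbols from the scanner files was not run, since they hold no gene names. The cause of these changes was not tested beyond what each setting does. Most receptors lay below the signal at which a level can be read, so a fold change against them is a bound or a ratio to a dim reading.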
